A study of Mus musculus with 9 samples.

Results

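Back-splice junctions that the deposited annotation placed in no gene, or in more than 1 gene, were taken out of a table of circular RNAs (circRNAs) in mouse liver. A row was taken when its feature field began with "intergenic" or when its gene field held several gene IDs. Of 11312 rings in the table, 258 met this rule, 132 as intergenic and 126 as multi-gene, and no ring was in both classes. The other 11054 rings carry 1 gene each and are called single-gene rings below. The livers came from C57 BL6 mice of wild-type genotype, aged 8 weeks and weighing 20 g on average. There were 3 libraries in each of 3 groups. The first group received 300 µg/kg dmPGE2, a stable analogue of prostaglandin E2, by intraperitoneal injection 1 hour before 500 mg/kg acetaminophen (APAP), the second received the APAP alone, and the third received saline as the control. Tissue was taken 6 hours after APAP, and total RNA of whole liver was sequenced after removal of ribosomal RNA. Nothing in the labels says that linear RNA was digested, or that the libraries of a group came from separate mice, so the spread behind each p-value may be technical.

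A circRNA forms when the donor splice site at the end of an exon is joined to the acceptor site of the same or an upstream exon, a reaction called back-splicing. Sequencing sees it as a read whose parts map in the reverse of genomic order. Such a read has the same layout as one that crosses from a gene to a copy of it lying upstream in a tandem array, since neighbouring copies can carry near-identical exons. The mouse liver expresses several such arrays. They include the major urinary proteins (Mup), which are secreted carriers of small hydrophobic pheromones, the serine protease inhibitors of the Serpina1 and Serpina3 groups, and the cytochromes Cyp2c, Cyp2d, Cyp2j and Cyp4a. The Ugt1a locus is another kind of cluster, with many first exons spliced to shared later exons, and encodes enzymes that conjugate acetaminophen with glucuronic acid.

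The most abundant intergenic ring lay in the Mup array, and its junction letters are given first because they are also those of a linear Mup transcript. The ring, novel_circ_0010359, spans chr4:60069733-60138460 on the minus strand of GRCm38, a distance of 68728 bases. In GENCODE M21 its donor is the end of exon 2 of Mup7 and its acceptor is the start of exon 3 of Mup2. The 40 letters around the junction are the last 20 bases of the donor exon in lower case and the first 20 bases of the acceptor exon in capitals, 5′ to 3′, as GENCODE M21 transcripts give them. The splice of exon 2 to exon 3 within each single gene is shown beside it.
ring Mup7 to Mup2: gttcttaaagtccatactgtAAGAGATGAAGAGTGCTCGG
linear Mup8: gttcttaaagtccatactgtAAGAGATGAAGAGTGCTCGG
linear Mup13: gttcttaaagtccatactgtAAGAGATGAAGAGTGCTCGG
linear Mup7: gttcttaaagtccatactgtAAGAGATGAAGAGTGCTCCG
linear Mup2: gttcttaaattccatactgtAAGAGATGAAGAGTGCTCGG
With positions counted from 1 at the 5′ end of the 40 letters, the ring differed from linear Mup7 by G39C and from linear Mup2 by G10T. It had 0 differences from linear Mup8 and linear Mup13. A second annotated Mup7 transcript begins exon 3 at another base and is not shown.

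Both exons at the ends of the Mup ring are printed whole, to show the sequence that a read of the junction runs into. In the donor exon the last 20 bases are in capitals, and in the acceptor exon the first 20.
Mup7 exon 2, chr4:60069733-60069866, minus strand: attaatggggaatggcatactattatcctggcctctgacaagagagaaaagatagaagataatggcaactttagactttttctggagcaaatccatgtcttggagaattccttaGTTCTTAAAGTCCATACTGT
Mup2 exon 3, chr4:60138387-60138460, minus strand: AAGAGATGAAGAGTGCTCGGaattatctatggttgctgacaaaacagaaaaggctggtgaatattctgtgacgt
The array around the ring, by a run of Mup symbols at most 200 kb apart, held 23 annotated genes between 59956804 and 60821463 of chromosome 4.

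Junction letters of 4 further rings between neighbouring gene copies, and of 2 rings without a linear match, are given in the same form, the donor in lower case and the acceptor in capitals.
novel_circ_0001740, Gm8893 exon 2 to Serpina1c exon 4, chr12:103819885-103896155, minus strand: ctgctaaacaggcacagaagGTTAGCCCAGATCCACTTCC
novel_circ_0009720, Cyp4a32 exon 4 to Cyp4a10 exon 5, chr4:115524248-115606772, plus strand: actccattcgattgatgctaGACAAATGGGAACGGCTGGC
novel_circ_0011793, Mug1 exon 28 to Gm7298 exon 29, chr6:121782682-121881862, plus strand: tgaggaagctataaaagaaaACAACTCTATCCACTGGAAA
novel_circ_0005022, C4b exon 21 to C4a exon 22, chr17:34735404-34815573, minus strand: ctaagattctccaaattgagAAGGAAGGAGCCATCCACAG
novel_circ_0004860, Acat3 to Acat2, chr17:12925268-12948657, minus strand: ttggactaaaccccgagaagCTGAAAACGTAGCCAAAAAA
novel_circ_0003348, Hacl1, chr14:31618972-31622974, minus strand: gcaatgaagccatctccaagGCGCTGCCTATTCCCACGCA
The Serpina1c letters occur without a difference in the linear transcript of Gm8893, a pseudogene beside it. Those of the Cyp4a ring occur in linear Cyp4a10 and Cyp4a31, those of the Mug1 ring in linear Mug1, and those of the complement C4 ring in linear C4a and C4b. No annotated transcript held the Acat3 to Acat2 or the Hacl1 letters within 2 mismatches.

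The same search was run over all rings with both ends at annotated exon ends. Of 132 intergenic rings, 30 had both ends exactly at annotated exon ends, and in all 30 the ends belonged to different genes. Of these 30 rings, 19 had junction letters found in an annotated linear transcript, 16 without a difference and 3 with 1 difference. With 30 bases on each side, 18 of the 19 were found again. Whether the reads of these 19 rings came from linear transcripts was not tested. In 13 of the 19 the acceptor exon's number followed that of the donor exon in at least 1 pair of annotated transcripts, as exon 2 and exon 3 do in the Mup ring. Among the other rings that could be searched, 0 of 72 multi-gene rings and 3 of 9973 single-gene rings had such a match. These are not like rings, since all 72 and 9966 of the 9973 had both ends on exons of a shared gene. A back-splice within 1 gene joins exons in the reverse of their linear order, so few matches could arise there. The counts therefore do not compare the classes. Another 60 intergenic rings had 1 end at an exon end and 42 had none, so their junction letters could not be read from transcripts.

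The word "intergenic" described the row of the table and not always the place. By GENCODE M21, 34 of the 132 intergenic rings had both ends inside genes of the same strand, 66 had 1 end inside such a gene, and 32 had neither. Multi-gene rings were of another kind. In 102 of 126 both ends lay inside at least 2 overlapping genes of the same strand, in 21 they lay inside 1 gene, and in 3 inside none. A gene with a provisional Gm name or with no name was among the hosts of 102 of the 126. All 72 multi-gene rings with both ends at exon ends had both ends in a shared gene. Of the 126 rings, 120 carried 2 genes and 6 carried more, up to 9 on 1 Ugt1a ring, and the 126 rings fell on 61 sets of genes.

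Tandem clusters, defined as at least 3 genes with the same symbol stem, neighbours at most 200 kb apart and both ring ends inside the run, held 32 of the 258 rings (12.4%) and 251 of the 11054 single-gene rings (2.27%). The 32 comprised 22 intergenic and 10 multi-gene rings. Serpina and Cyp4a runs held 4 intergenic rings each, all with a linear match. Mup, Mug, Cyp2d and Ces runs held 1 each, also with a match. The Cyp2j and Cfhr runs held 2 intergenic rings each. Of these, novel_circ_0010549 was searched and had no match, and the others could not be searched. Some runs were families by name alone, such as the Zfp run that took in 5 rings of Srcap, a chromatin remodeller. Other neighbouring copies were missed by the naming rule, among them Gm7298 with Mug1, C4a with C4b and Acat2 with Acat3. With 2 genes of a stem sufficing, 55 rings were in a cluster.

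A list of 36 liver gene families, some entries being single genes such as Fgg, held 24 of the 258 rings, in 13 families, and 138 single-gene rings. Those 24 rings carried 9988 reads over the 9 libraries, of which the Mup ring had 8701, and the 138 single-gene rings carried 11405. In the Mup family the single-gene rings amounted to 1 ring with 5 reads. The Cyp3a family of drug-metabolising cytochromes had 13 single-gene rings and 0 of the 258, and the fibrinogen gamma gene Fgg had 17 and 0. Of all rings in these families, 55 were abundant enough for the edgeR test described below. Over the 3 comparisons, 0 calls were made among them at an adjusted p under 0.05, against 0.108% of the 12993 ring and comparison pairs of all rings tested. At an unadjusted p under 0.05 there were 12 of 165 pairs in these families (7.27%), against 4.44% of all pairs. The 3 comparisons share libraries, so the pairs are not independent.

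The span of intergenic rings was long. It ran between 215 and 99651 bases with a median of 12304 bases, against 4719 bases in multi-gene rings and 7798 bases in single-gene rings. The 3 longest were novel_circ_0011792 with 99651 bases and novel_circ_0011793 with 99181 bases, both between Mug1, a murinoglobulin that traps proteases, and Gm7298, and novel_circ_0001752 with 90806 bases between Serpina3k and Serpina3h. Among the 15 intergenic rings that spanned over 60000 bases, a limit set after the spans were seen, 14 had junction letters found in a linear transcript. The longest multi-gene rings were 3 of Foxp1, a forkhead transcription factor, with 63670, 56976 and 35741 bases. Despite its span, the typical intergenic ring was short once spliced, with a deposited spliced length of 238 bases at the median, against 286 bases for multi-gene and 295 bases for single-gene rings.

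**Figure D1:**
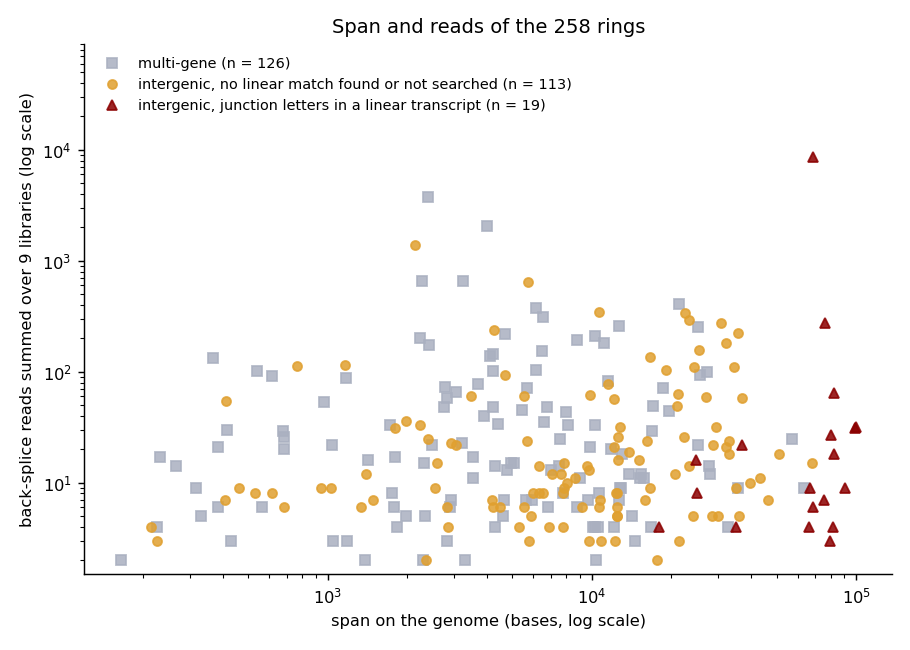
Genomic span (horizontal axis, bases, log scale) and back-splice reads summed over 9 libraries (vertical axis, log scale) of 132 intergenic and 126 multi-gene rings, 1 point per ring. The 19 rings whose junction letters occur in a linear transcript (triangles) have a median span of 75837 bases, 14 of them above 60000 bases and the shortest at 17892 bases, and the Mup ring stands highest with 8701 reads.

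Compared library by library over the rings detected there, the median span of intergenic rings exceeded that of single-gene rings in 9 of 9 libraries, by 0.80 ± 0.30 on the log2 scale (SD, n = 9 libraries; exact sign-flip permutation test, two-sided, p = 0.0039). For multi-gene rings it was lower in 9 of 9 libraries, with a log2 difference of -0.69 ± 0.19 (SD, n = 9 libraries; exact sign-flip permutation test, two-sided, p = 0.0039). This is the smallest p that sign-flips over 9 libraries can give. Put together, the 258 rings differed from single-gene rings by -0.08 ± 0.27 (SD, n = 9 libraries; the same exact test, p = 0.375, adjusted p = 0.429 over 8 tests). Without control 3 the log2 differences were 0.72 ± 0.19 for intergenic, -0.70 ± 0.21 for multi-gene and -0.13 ± 0.25 for all 258 rings (SD, n = 8 libraries; exact sign-flip permutation p = 0.0078, 0.0078 and 0.18 in that order). The libraries came from different treatments and share their annotation, so they are replicates of the measurement and not of a condition.

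The mean number of reads per detected ring was higher for the 258 rings than for single-gene rings in 9 of 9 libraries, by 0.57 ± 0.50 on the log2 scale (SD, n = 9 libraries; exact sign-flip permutation test, two-sided, p = 0.0039, adjusted p = 0.031 over 8 tests). Without the Mup ring the difference was 0.18 ± 0.53 (SD, n = 9 libraries; same exact test, p = 0.43). Without all 19 rings that have a linear match it was 0.04 ± 0.10 (SD, n = 9 libraries; same exact test, p = 0.211). With control 3 left out, the difference was 0.44 ± 0.35 for the 258 rings, 0.0045 ± 0.10 without the Mup ring and 0.03 ± 0.094 without the 19 (SD, n = 8 libraries; same exact test, p = 0.0078, 0.859 and 0.391 in that order). Multi-gene rings alone lay above single-gene rings in 9 of 9 libraries, by 0.27 ± 0.085 (SD, n = 9 libraries, same exact test, p = 0.0039). Without control 3 their difference was 0.26 ± 0.083 (SD, n = 8 libraries, same exact test, p = 0.0078). The largest multi-gene ring, mmu_circ_0001636 of Zranb1, made up between 24.2% and 32.1% of the multi-gene reads of each library. The multi-gene difference was not computed without that ring, so it may rest on that ring and is not shown to be a trait of the class. Intergenic rings alone, the Mup ring included, lay above in 7 of 9 libraries, by 0.74 ± 0.79 (SD, n = 9 libraries, same exact test, p = 0.023). Most of the 258 rings were rare. The median ring had 14.5 reads over all 9 libraries, and 109 rings (42.2%) were seen in 1 library, against 15 reads and 38.7% for single-gene rings. Only 15 of the 258 rings, 6 intergenic and 9 multi-gene, were found in all 9.

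The libraries held between 69268 and 154449 back-splice reads apart from control 3, which held 4362 reads and 739 rings. Control 3 stood apart in other ways given below, so the comparisons of shares, counts, spans and reads per ring are also given without it, as are group means in CPM and fitted fold changes. No library lists a count of 1, and a ring listed at 0 may therefore have had a read. Among hepatocyte marker genes, 9 of 10 carried rings, with summed levels between 19344 and 41724 CPM (reads per 1000000 back-splice reads of the library), and control 3 was the highest. For macrophages 1 of 4 markers (Adgre1), for endothelium 4 of 4, for stellate cells 1 of 4 (Fn1), for cholangiocytes 1 of 3 (Pkhd1) and for lymphocytes and neutrophils 1 of 3 (Ets1) carried rings, each list with a summed level of at most 2117 CPM in any library. In bulk tissue, fewer cells of a type and less RNA per cell cannot be told apart.

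The intergenic share of back-splice reads varied several-fold between libraries. It was 0.751%, 1.74% and 1.43% in the dmPGE2+APAP libraries, 1.71%, 1.57% and 0.723% in the APAP libraries, and 3.04%, 1.79% and 7.93% in the control libraries. The 3 control values lay above all 6 others. The group means were 1.31 ± 0.505%, 1.33 ± 0.533% and 4.25 ± 3.25% in dmPGE2+APAP, APAP and control livers (SD, n = 3 each), and an exact permutation test over the 3 groups gave p = 0.0571 (adjusted p = 0.152 over 8 tests). APAP against control gave an exact permutation p = 0.1, the smallest that 3 against 3 libraries allow. With control 3 left out, the 2 other controls averaged 2.41 ± 0.887% (SD, n = 2) and the exact permutation p was 0.154.

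With the Mup ring taken out of numerator and denominator, the intergenic share lay between 0.646% and 0.840% in 8 of 9 libraries. It was 0.751%, 0.820% and 0.696% in the dmPGE2+APAP libraries, 0.646%, 0.687% and 0.723% in the APAP libraries, and 0.750%, 0.840% and 7.93% in the control libraries. Control 1 then lay among the treated libraries, control 2 lay just above the highest of them, and control 3 lay far above all others. The exact permutation test over 3 groups gave p = 0.0536 with control 3 (adjusted p = 0.152 over 8 tests) and p = 0.154 without it, where the means were 0.756 ± 0.0621% in dmPGE2+APAP livers (SD, n = 3), 0.686 ± 0.0384% in APAP livers (SD, n = 3) and 0.795 ± 0.0638% in control livers (SD, n = 2).

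The multi-gene share was steadier. It was 1.40%, 1.40% and 1.44% in the dmPGE2+APAP libraries, 1.51%, 1.43% and 1.55% in the APAP libraries, and 1.39%, 1.45% and 1.79% in the control libraries, with overlap between all groups (exact permutation test over 3 groups, n = 3 each, p = 0.557, adjusted p = 0.557 over 8 tests). Without control 3 the means were 1.41 ± 0.0216% in dmPGE2+APAP livers (SD, n = 3), 1.496 ± 0.0629% in APAP livers (SD, n = 3) and 1.42 ± 0.0433% in control livers (SD, n = 2), and the exact permutation p was 0.143. Its largest ring, mmu_circ_0001636 of Zranb1, made up between 24.2% and 32.1% of the class in each library. Without that ring the share was 0.958%, 1.01% and 1.03% in the dmPGE2+APAP libraries, 1.09%, 1.09% and 1.18% in the APAP libraries, and 0.969%, 1.00% and 1.22% in the control libraries (exact permutation test, n = 3 each, p = 0.321, adjusted p = 0.429 over 8 tests). The 3 APAP values lay above the 3 dmPGE2+APAP values. They also lay above control 1 and control 2 but not control 3, and without control 3 the exact permutation test over 3 groups gave an unadjusted p = 0.0321, with means of 1.00 ± 0.0391% in dmPGE2+APAP livers (SD, n = 3), 1.12 ± 0.0531% in APAP livers (SD, n = 3) and 0.984 ± 0.0221% in control livers (SD, n = 2).

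**Figure D2:**
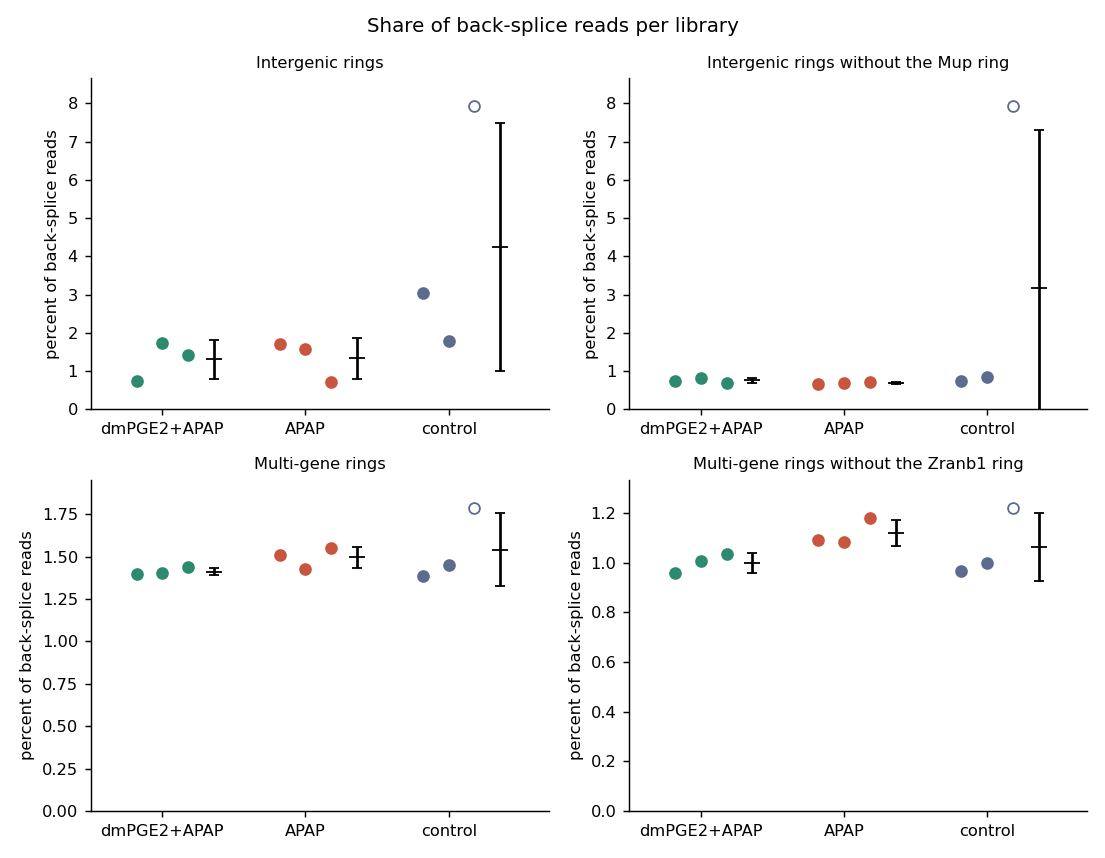
Percent of each library's back-splice reads (vertical axes) in intergenic and multi-gene rings, with and without the largest ring of the class, by group. Points are libraries, the open point is control 3, and bars are mean ± SD of 3 libraries (the bar of the controls without the Mup ring runs below 0 and is drawn to 0). Without the Mup ring, 8 libraries lie between 0.646% and 0.840% and control 3 at 7.93%.

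The tandem cluster share, which includes the Mup and Serpina1c rings, was 0.157%, 1.08% and 0.881% in the dmPGE2+APAP libraries, 1.20%, 1.05% and 0.140% in the APAP libraries, and 2.42%, 1.1% and 6.97% in the control libraries. The APAP and control groups overlapped, since control 2 lay below APAP 1. All 3 dmPGE2+APAP values lay below the 3 control values (exact permutation test, p = 0.1, the smallest that 3 against 3 libraries allow). An exact permutation test over the 3 groups (n = 3 each) gave p = 0.0929 (adjusted p = 0.186 over 8 tests), and without control 3 it gave p = 0.261. The number of the 258 rings expected with at least 2 reads, had each library been drawn down to 4362 reads, was 16.0, 17.8 and 17.3 in the dmPGE2+APAP libraries, 16.5, 16.6 and 18.3 in the APAP libraries, and 17.3, 18.1 and 26 in the control libraries (exact permutation test, n = 3 each, p = 0.257, adjusted p = 0.411 over 8 tests). Control 3 lay above the other 8 libraries, which overlapped. Without it, and drawn down to the 69268 reads of APAP 3, the exact permutation p over the 3 groups was 1.

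The Mup ring had at least 845 reads in 6 libraries and 0 in the other 3. It had 0, 918 and 845 reads in the dmPGE2+APAP libraries, 1163, 971 and 0 reads in the APAP libraries, and 3564, 1240 and 0 reads in the control libraries. In each group 1 library was thus at 0. Of these, dmPGE2+APAP 1 was as deep as libraries that had the ring, with 120531 back-splice reads, while APAP 3 had 69268 and control 3 had 4362. In the 6 libraries with the ring it made up between 51.6% and 75.9% of intergenic reads. Its share of all back-splice reads in control 1 was 2.31% (95% Wilson interval 2.23% to 2.38%), and in the other 5 libraries it lay between 0.736% and 1.07%. Intervals cover counting error only, since reads were not tied to single molecules.

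The fitted log2 fold change of the Mup ring was -0.78 (SE 0.31) in APAP against control, -0.28 (SE 0.31) in dmPGE2+APAP against APAP and -1.05 (SE 0.31) in dmPGE2+APAP against control. Here and below, SE is the size of the log2 fold change divided by the square root of edgeR's F statistic. It is no direct measure of the spread between libraries, which for this ring ran between 0 and 3564 reads within the controls. The adjusted p values from edgeR's quasi-likelihood test, over all rings tested, were 0.799, 1.00 and 0.324 in that order. By limma-voom the log2 fold changes were -3.22, -1.01 and -4.24, with adjusted p values of 0.276, 0.947 and 0.106. Without control 3, at 0 reads, the edgeR values were -1.34, -0.29 and -1.63. Without control 1, the library with 3564 reads, the first value was 0.35 and the last 0.07. Without dmPGE2+APAP replicate 2, dmPGE2+APAP against control was -1.64 with an adjusted p of 0.0237 from the same edgeR test, where 0.199% of all rings tested passed, so 1 library decided that call.

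The ring between Gm8893 and Serpina1c had 277 reads in control 3 and 0 in each of the other 8 libraries. Serpina1 genes encode alpha-1-antitrypsin, an inhibitor of neutrophil elastase that hepatocytes secrete. The 277 reads were 6.35% of the back-splice reads of control 3 (95% Wilson interval 5.66% to 7.11%) and 80.1% of its intergenic reads, and the same library had 728 non-junction reads at the sites, which are reads there that do not cross the back-splice. In all, 4 intergenic rings were found in control 3 alone, this one included.

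Other rings between gene copies were also seen in few libraries. The ring between Cyp4a32 and Cyp4a10, which are fatty acid hydroxylases, had 65 reads in dmPGE2+APAP 1 and 0 in the other 8 libraries. At its sites dmPGE2+APAP 1 had 3731 non-junction reads, so back-splice reads were 1.71% of both kinds. Of the 2 longest rings, novel_circ_0011792 had 17 reads in dmPGE2+APAP 2, 15 reads in APAP 3 and 0 elsewhere. Its neighbour novel_circ_0011793 had 0 reads in the 3 dmPGE2+APAP libraries, 11, 5 and 0 reads in the APAP libraries, and 8, 0 and 7 reads in the control libraries. The C4 ring, between the paralogous complement genes, had 6 reads in dmPGE2+APAP 2, 12 in APAP 2 and 9 in control 2. In all, 11 of the 19 rings with a linear match (57.9%) were seen in 1 library. The same held for 6 of the 11 searched intergenic rings without a match (54.5%) and 65 of all 132 intergenic rings (49.2%), so the shares lay near one another. Rings found in all 9 libraries were 0 of the 19, 1 of the 11 and 6 of the 132.

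**Figure D3:**
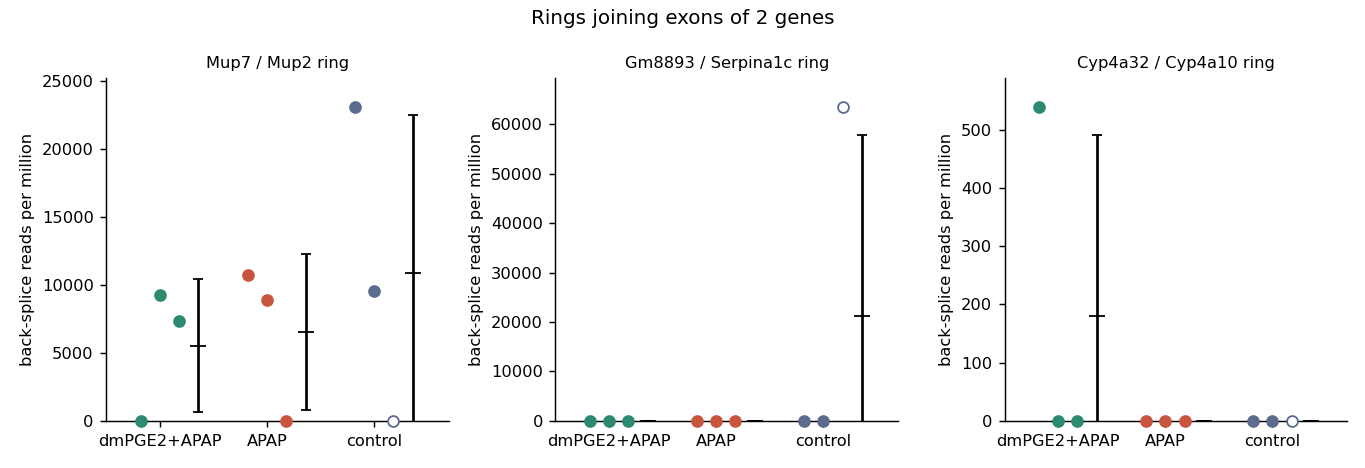
Back-splice reads per 1000000 (CPM, vertical axes) of 3 rings whose ends lie on exons of 2 neighbouring gene copies, by group. Points are libraries, the open point is control 3, and bars are mean ± SD of 3 libraries, drawn to 0 where they run below it. The Mup ring is at 0 in 1 library of each group, the Serpina1c ring is above 0 in control 3 alone, and the Cyp4a ring in dmPGE2+APAP 1 alone. A ring from the same Cyp4a32 exon to Cyp4a31, with the same junction letters and reads in further libraries, is not shown.

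Several intergenic rings without a linear match, or without letters to search, were present throughout. The ring novel_circ_0006778, chr1:139992106-139994254 on the minus strand, has its donor inside Gm5834, in the neighbourhood of the complement factor H-related genes. It had 199, 126 and 179 reads in the dmPGE2+APAP libraries, 155, 156 and 123 reads in the APAP libraries, and 246, 180 and 19 reads in the control libraries. As CPM it averaged 1494 ± 198 in dmPGE2+APAP livers, 1542 ± 202 in APAP livers and 2444 ± 1659 in control livers (SD, n = 3 each), or 1489 ± 147 in control 1 and control 2. The groups overlapped apart from control 3, and its log2 fold change in APAP against control was -0.13 (SE 0.37, edgeR adjusted p = 1.00), or -0.049 without control 3. Its acceptor was used by 4 intergenic rings, which had 1519 reads together.

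A further group of intergenic rings shared the acceptor at position 29136366 of chromosome 12, upstream of the unnamed gene Gm31333, with 5 rings and 714 reads. The main one, novel_circ_0001919, had 80, 94 and 72 reads in the dmPGE2+APAP libraries, 58, 91 and 54 reads in the APAP libraries, and 128, 61 and 7 reads in the control libraries, with overlap between groups. Between Acat2, the gene of a cytosolic acetyl-CoA acetyltransferase, and its neighbouring copy Acat3 lay a ring, novel_circ_0004860, that was searched and had no linear match. The ring novel_circ_0004860 had 38, 30 and 51 reads in the dmPGE2+APAP libraries, 26, 31 and 27 reads in the APAP libraries, and 47, 37 and 4 reads in the control libraries. A neighbour, novel_circ_0004853, had its highest count, 105 reads, in control 2, against at most 56 in the other libraries. The ring novel_circ_0005762 near F830016B08Rik on chromosome 18 had 69, 54 and 29 reads in the dmPGE2+APAP libraries, 22, 37 and 17 reads in the APAP libraries, and 53, 52 and 3 reads in the control libraries.

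Multi-gene rings were led by Zranb1, which encodes a deubiquitinating enzyme. Its 9 rings were given 2 hosts because Fgfr2, a fibroblast growth factor receptor gene, is annotated across them on the other strand. The ring mmu_circ_0001636, chr7:132948044-132950435 on the plus strand, had 535, 395 and 466 reads in the dmPGE2+APAP libraries, 456, 379 and 260 reads in the APAP libraries, and 653, 589 and 25 reads in the control libraries. As CPM it averaged 4161 ± 243 in dmPGE2+APAP livers, 3804 ± 369 in APAP livers and 4830 ± 795 in control livers (SD, n = 3 each), or 4380 ± 215 in control 1 and control 2. The log2 fold change in APAP against control was -0.08 (SE 0.33, edgeR adjusted p = 1.00), or -0.28 without control 3 (edgeR adjusted p = 0.841). The 9 rings had 4612 reads, 35.2% of the multi-gene class, and 4 of them shared the acceptor of the main ring. A longer ring of the same acceptor, novel_circ_0012852, had 191, 172 and 270 CPM in the dmPGE2+APAP libraries, 368, 201 and 375 CPM in the APAP libraries, 382 and 239 CPM in control 1 and control 2, and 2751 CPM in control 3. Its log2 fold change in dmPGE2+APAP against control was -1.19 (SE 0.57, edgeR adjusted p = 0.96), or -0.60 without control 3.

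Hacl1, a peroxisomal lyase that shortens 2-hydroxy fatty acids, and the overlapping Gm49387 held 8 rings with 2488 reads. The main one, novel_circ_0003348, had 223, 255 and 247 reads in the dmPGE2+APAP libraries, 264, 247 and 178 reads in the APAP libraries, and 292, 330 and 9 reads in the control libraries. Its levels overlapped between groups, control 3 included, with 2192 ± 363 CPM in dmPGE2+APAP livers, 2419 ± 157 CPM in APAP livers and 2164 ± 336 CPM in control livers (SD, n = 3 each), or 2215 ± 459 CPM in control 1 and control 2. The log2 fold change in APAP against control was 0.29 (SE 0.35, edgeR adjusted p = 1.00), or 0.04 without control 3.

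Foxp1 and the overlapping Gm20696 held the most rings of any gene pair, 16, with 1849 reads. A single Foxp1 exon, between 99435216 and 99435345 of chromosome 6, was the acceptor of 5 of them and the donor of another 5. The main ring there, mmu_circ_0001500, had 47, 32 and 46 reads in the dmPGE2+APAP libraries, 51, 37 and 26 reads in the APAP libraries, and 90, 76 and 0 reads in the control libraries. Control 1 and control 2 lay above the other libraries in CPM, at 583 and 585 against at most 469, while control 3 was at 0. Summed over the 16 rings, the pair had 2059 ± 307 CPM in dmPGE2+APAP livers, 2187 ± 358 CPM in APAP livers and 1775 ± 223 CPM in control livers (SD, n = 3 each), or 1860 ± 236 CPM in control 1 and control 2, with overlap.

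The Ugt1a ring novel_circ_0007606, chr1:88136077-88139331 on the plus strand, has its donor at an exon end of Ugt1a6a and Ugt1a7c and lies inside the overlapping genes Ugt1a10, Ugt1a9, Ugt1a8, Ugt1a7c, Ugt1a6b and Ugt1a6a. It had 83, 57 and 104 reads in the dmPGE2+APAP libraries, 60, 77 and 46 reads in the APAP libraries, and 110, 105 and 15 reads in the control libraries. As CPM it averaged 723 ± 168 in dmPGE2+APAP livers, 640 ± 79 in APAP livers and 760 ± 68 in control 1 and control 2, while control 3 had 3439. The log2 fold change in APAP against control was -0.60 (SE 0.43, edgeR adjusted p = 0.959), or -0.33 without control 3. The only other Ugt1a ring of the class had 2 reads in 1 library. Another abundant multi-gene ring, novel_circ_0011273 of Prr14l and Gm20671, had 93, 79 and 71 reads in the dmPGE2+APAP libraries, 72, 104 and 82 reads in the APAP libraries, and 97, 61 and 0 reads in the control libraries. Smaller multi-gene rings inside name-defined clusters, with at least 20 reads in 1 library, were novel_circ_0012785 of Srcap with 23 reads in dmPGE2+APAP 2, novel_circ_0004363 of Dgcr2 with 30 reads in APAP 2, and mmu_circ_0000920 of Rbm4 with 20 reads in control 2 alone.

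**Figure D4:**
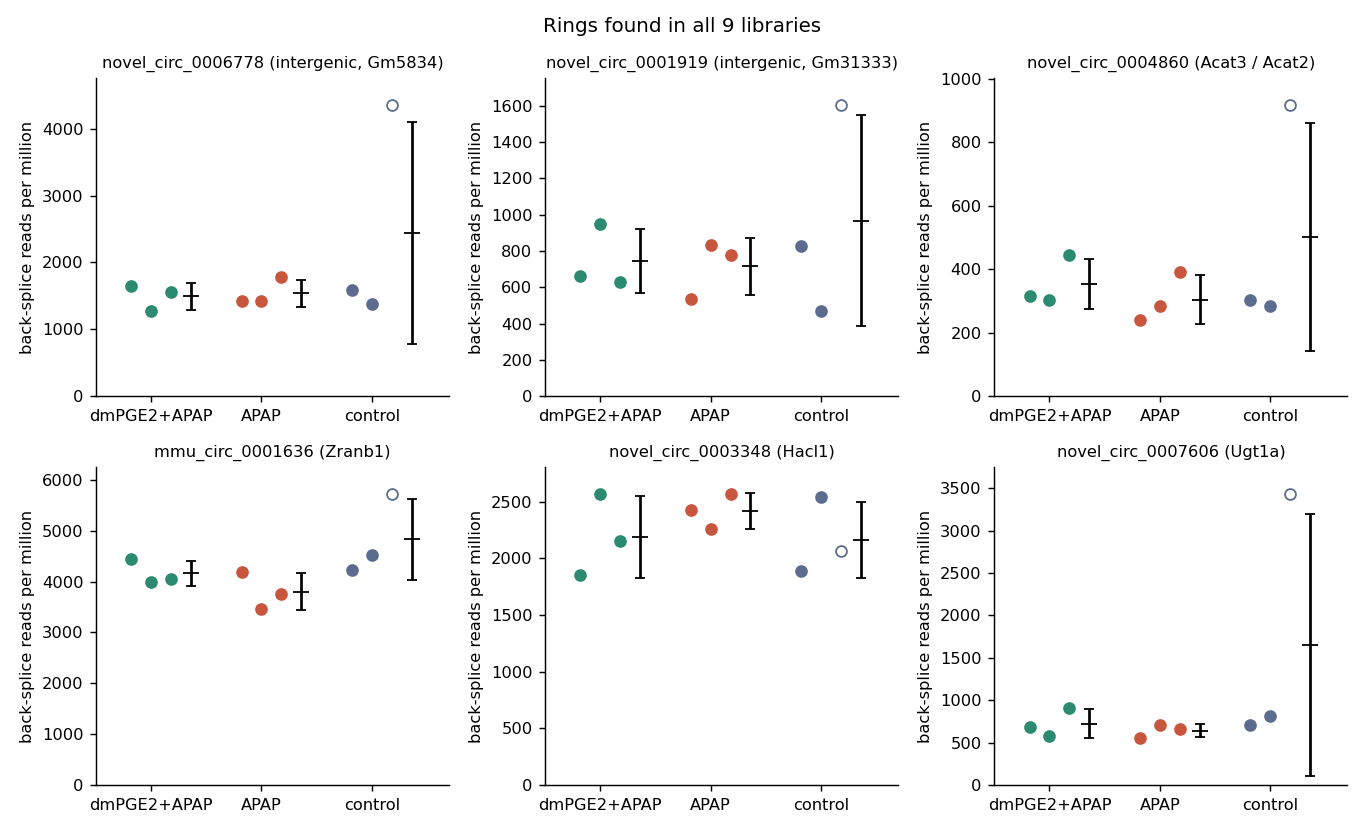
Back-splice reads per 1000000 (CPM, vertical axes) of 3 intergenic and 3 multi-gene rings that were found in all 9 libraries, by group. Points are libraries, the open point is control 3, and bars are mean ± SD of 3 libraries. For the Zranb1 and Ugt1a rings all APAP values lie below all control values, and the dmPGE2+APAP values overlap both groups. For the other rings shown the groups overlap. Control 3 is the highest library for all but the Hacl1 ring.

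Back-splice reads were also set against the non-junction reads at the ring's own sites, which were not used to choose the rings. The back-splice reads in this percent are the same counts by which rings were chosen, so it is not an independent measure. For mmu_circ_0001636, back-splice reads were 81.7%, 76.0% and 79.4% of back-splice and non-junction reads together in the dmPGE2+APAP libraries, 81.6%, 76.7% and 73.9% in the APAP libraries, and 79.0%, 77.4% and 14.2% in the control libraries. Control 3 lay far below the other 8. The same held for novel_circ_0006778, at 9.27% in control 3 and between 58.8% and 72.9% elsewhere, and for novel_circ_0001919, at 21.9% in control 3 and between 42.6% and 67.4% elsewhere. Over rings of the 258 with at least 5 back-splice reads and a list that could be read, the median was between 24.4% and 32.8% in the 8 other libraries and 15.9% in control 3, which had 6 such rings. For single-gene rings it was between 25% and 29.4%, and 5.71% in control 3. The list of the Mup ring could not be read.

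**Figure D5:**
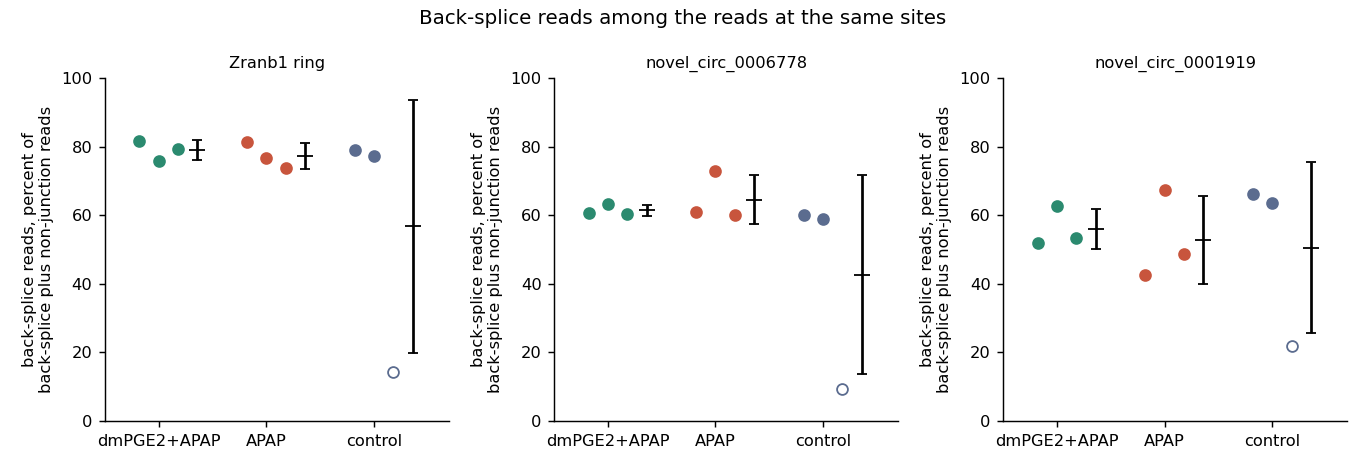
Back-splice reads as a percent of back-splice plus non-junction reads at the same sites (vertical axes, 0 to 100) for 3 rings, by group. Points are libraries, the open point is control 3, and bars are mean ± SD of 3 libraries. Control 3 lies at 14.2%, 9.27% and 21.9%, below every other library in each panel.

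Treatment effects were tested ring by ring in a single fit over all 9 libraries. Of the 258 rings, 93 had at least 5 reads in at least 3 libraries, 41 intergenic and 52 multi-gene, and entered the fit with 4331 rings in all. By edgeR's quasi-likelihood test at an adjusted p under 0.05, 0 of the 93 passed in APAP against control, where 0.139% of all rings tested did. In dmPGE2+APAP against APAP, 0 of the 93 passed, against 0.0693% of all, and in dmPGE2+APAP against control 0 passed, against 0.115% of all. DESeq2 also called 0 of them in each comparison, against 0.323%, 0% and 0.0231% of all rings in that order, and so did limma-voom, against 0.0924%, 0% and 0.0462%. Without TMM scaling, edgeR called 2 of the 93 in dmPGE2+APAP against control, against 0.231% of all. Without a filter on low counts it called 1 of the 258 in APAP against control and 2 in dmPGE2+APAP against control, against 0.0707% and 0.106% of all. With the replicate number as a block it called 1 of the 93 in dmPGE2+APAP against APAP, against 0.115% of all, and the replicate numbers were not found to pair the libraries. Without control 3, edgeR called 0 in each comparison too. At an unadjusted p under 0.05, edgeR gave 7 of 93 in APAP against control (5.17% of all rings tested), 3 of 93 in dmPGE2+APAP against APAP (3.81% of all) and 8 of 93 in dmPGE2+APAP against control (4.34% of all). DESeq2 gave 6, 2 and 8 (5.24%, 3.67% and 4.02% of all), and limma-voom 9, 5 and 11 (8.45%, 6.65% and 7.41% of all), in that order. The median log2 fold change of the 93 was 0.03, 0.02 and 0.16 in the same order, beside 0.16, 0.08 and 0.24 over all rings tested.

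Rings with the smallest p-values are named although none passed. In APAP against control these were novel_circ_0012589 of Foxp1 and novel_circ_0010652 of Zfp644, a zinc finger gene, both with an adjusted p of 0.799 by edgeR. The Foxp1 ring had 17, 16 and 7 reads in the APAP libraries and 3, 0 and 0 in the control libraries, and the Zfp644 ring had 16, 9 and 0 reads in the APAP libraries and 0 in each control. In dmPGE2+APAP against APAP they were novel_circ_0011793 between Mug1 and Gm7298, given above, and novel_circ_0012784 of Srcap, with an adjusted p of 1.00 each by edgeR. The Srcap ring had 0 reads in each dmPGE2+APAP library and 10, 13 and 10 reads in the APAP libraries. In dmPGE2+APAP against control they were the Mup ring and novel_circ_0011793, with adjusted p values of 0.324 and 0.488 by edgeR.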

How the data were processed

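The authors deposited 1 table of counts of back-splice reads per ring and library, unscaled per the file headers, with TPM beside them (not used here) and lists of non-junction reads. Per the submitters' processing notes HISAT2 and the build GRCm38 (mm10) were used. For the ring caller, its name and filters were not given in the sources used here. The columns of counts named for APAP and for dmPGE2 with APAP match sample titles. The 3 columns coded BC were taken as the controls by elimination, and their numbers are the columns' own.

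Deposited starts were raised by 1. Ring ends were matched to exon ends of GENCODE M21 (GRCm38), which holds all gene IDs of the 126 multi-gene rings. The junction letters, 20 bases on each side, were looked for in all M21 transcripts with at most 2 mismatches. CPM is reads per 1000000 back-splice reads of the library. Rings with 5 or more reads in 3 or more libraries entered edgeR 4.0.16 in R 4.3.3 (quasi-likelihood test, TMM, Benjamini-Hochberg, threshold 0.05). Shares were compared by exact permutation of libraries (1680 arrangements for 3 groups, 20 for a pair, so p cannot go below 0.1 there) and rings by exact sign-flips over 9 libraries, all two-sided. The edgeR step was checked on simulated data. DESeq2 1.42.0 and limma-voom (limma 3.58.1) were alternatives. Python 3.11.15 and scipy 1.17.1 were used. Non-junction lists of 48 of the 258 rings were run together and left out. Named rings were the 6 highest by mean CPM and the 3 longest of each class, those in the chromosome 4 array, cluster rings with at least 20 reads in 1 library, and the 2 smallest p-values per comparison. Others shown for their sequence or shared ends were picked after their values were seen. The members and lists were chosen with earlier results of these data known.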

Additional observations from a re-analysis of the deposited data

How the results depend on the processing

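Control 3 has 4362 reads, which limits every value that rests on it, and junction letters could be searched for 30 of 132 intergenic rings only. With rings whose junction letters occur in linear transcripts left out, an alternative chosen after seeing the data, the intergenic share gave an exact permutation p of 0.0393. The share was then 0.745%, 0.804% and 1.23% in control 1, control 2 and control 3, and between 0.625% and 0.771% in the treated libraries. Control 1 thus lay among the treated libraries and control 3 was the highest, and this p was not computed without control 3. With the same rings left out, the members' excess of reads per ring fell to 0.04 on the log2 scale, and their span differed by -0.28. With 2 genes of a stem sufficing, the tandem cluster share gave an exact permutation p of 0.0429. Taken as the number of rings expected with at least 1 read, the equal-depth number gave an exact permutation p of 0.471 with the opposite direction. Without the Mup ring the excess of reads per ring was 0.18. For span, intergenic rings alone gave 0.80 and multi-gene rings alone gave -0.69. The causes of these changes were not tested.

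Leaving out 1 library at a time, the exact permutation p ranged between 0.0357 and 0.154 for the intergenic share, 0.00714 and 0.332 without its largest ring, 0.125 and 0.779 for the multi-gene share, 0.0321 and 0.593 without its largest ring, and 0.0286 and 0.261 for the tandem cluster share. The share of the intergenic class passed 0.05 without control 2, as did the tandem cluster share, and the intergenic share without the Mup ring passed without control 1, where control 3 is 1 of the 2 controls left. The difference between the treated and the control libraries changed sign for both multi-gene shares without control 3, and the one without its largest ring also did so without each dmPGE2+APAP library. Calls among the 258 rings in dmPGE2+APAP against control ranged between 0 and 1, with the 1 call made without dmPGE2+APAP replicate 2 (0.199% of all rings). The log2 fold change of the Mup ring ranged between -1.36 and 0.35 in APAP against control, -0.87 and 0.31 in dmPGE2+APAP against APAP, and -1.64 and 0.074 in dmPGE2+APAP against control, and that of the Zranb1 ring in APAP against control between -0.28 and 0.055.

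Other fits called few of the 258 rings. Without TMM scaling 2 were called in dmPGE2+APAP against control (the Mup ring, edgeR adjusted p = 0.0031, and novel_circ_0011793), where 0.231% of all rings tested were, and the median log2 fold change over all rings tested there was 0.12 instead of 0.24. Without a filter on low counts 1 was called in APAP against control (the Serpina1c ring, which rests on control 3; 0.0707% of all rings) and 2 in dmPGE2+APAP against control (that ring and the Mup ring; 0.106% of all). With the replicate number as a block 1 was called in dmPGE2+APAP against APAP (0.115% of all), the Mup ring, at a log2 fold change of 1.82, and that ring had 1.04 in dmPGE2+APAP against control. The numbers were not used as pairs, because libraries with the same number deviated from their group means with correlations between -0.028 and 0.024 only. With the block, the permutation p of the 6 shares and counts ranged between 0.111 and 0.417 and no call changed. The planned search of ring ends by alignment to a genome was not run, as only transcripts were used here. In all, 243 of 276 values kept their direction and their side of the threshold.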
